A study of Mus musculus with 20 samples.

Results

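The insulin-like growth factor (IGF) system of the mouse aorta was described with 10 of the 21078 genes in the table of sense-strand read counts: the ligands Igf1 and Igf2, the receptors Igf1r and Igf2r, and the binding proteins Igfbp2, Igfbp3, Igfbp4, Igfbp5, Igfbp6 and Igfbp7. The genes were chosen by family membership, and the family was chosen because Igf2r was among the genes that increased most with radiation dose in these same mice. The values of Igf2r against dose are therefore given as a description with no test, and tests against dose are given for the other 9 genes. Each of the 10 symbols matched exactly 1 gene, and all 10 genes passed the filter, a mean of 5 or more counts per mouse, as did 13124 genes in all.

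The study exposed 20 male wildtype C57BL/6 mice, 10 to 12 weeks old, to whole-body radiation, 10 with a proton beam and 10 with gamma rays from a 137Cs source. Each radiation type had 1 mouse at each of the 10 doses of 0, 5, 10, 25, 50, 75, 100, 125, 150 and 200 cGy, and the mouse at 0 cGy was put into the irradiator without exposure. All mice were restrained and awake, and the thoracic aorta was taken 4 h after exposure. No dose was repeated within a radiation type, so the error of a slope comes from the scatter of single mice about fitted lines. The spread was estimated in 1 fit over all 20 mice, shared by both types and drawing on other genes. Also, 2 neighbouring doses differ by 1 mouse each.

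IGF-I and IGF-II are secreted growth factors that signal through the tyrosine kinase receptor encoded by Igf1r, which acts on growth and survival through the PI3K and AKT kinases. The receptor encoded by Igf2r is also the cation-independent mannose 6-phosphate receptor, which takes IGF-II into the cell for degradation and carries lysosomal enzymes, and it does not signal as a kinase. The binding proteins hold IGFs outside the cell, prolong their life and limit or present them to the receptor, and the one encoded by Igfbp7 binds IGFs weakly. In arteries, IGF-I is known as a survival and growth factor of smooth muscle cells.

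Totals per mouse were between 6051657 and 6058006 counts because the authors resampled the libraries to one depth, so depth did not vary with dose. A group of 4 libraries and 1 further library stood apart. In the 4 mice at 150 and 200 cGy the correlation across genes between expression, relative to the other mice, and transcript GC content was between -0.405 and -0.354, against -0.018 to 0.289 in the other 16 mice. With transcript length the correlation was 0.210 to 0.328 in those 4 mice and -0.201 to 0.029 in the other 16. Dose and this feature of the 4 libraries cannot be told apart, and the slopes of the members are also given over 0 to 125 cGy. In the proton mouse at 75 cGy the summed level of 5 cardiomyocyte markers was 2929 CPM (counts scaled to a common library total), against 10.3 to 57.5 in the other mice below 150 cGy, and the 6 white fat markers summed to 6343 CPM, against 523 to 2425. Its 6 smooth muscle markers summed to 26703 CPM, against 39478 to 56767, and all 6 were detected in these aortas. In whole tissue of this kind, fewer cells of a type and less RNA per cell cannot be told apart.

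The promoters of both receptor genes are shown first because the receptors were the members with higher counts at high dose in both radiation types. They are the 250 bases before the RefSeq transcription start on build GRCm38.p6, written 5′ to 3′ on the strand of the gene, with capitals for the GC box GGGCGG, on either strand, and for the E-box CACGTG.
Igf2r, chr17:12769707-12769956, minus strand: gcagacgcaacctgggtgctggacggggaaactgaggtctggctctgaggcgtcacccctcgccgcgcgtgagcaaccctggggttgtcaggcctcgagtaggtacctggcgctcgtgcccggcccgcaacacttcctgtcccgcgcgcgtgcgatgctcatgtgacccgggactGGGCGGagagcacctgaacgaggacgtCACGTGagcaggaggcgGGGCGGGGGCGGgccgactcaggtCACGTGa
Igf1r, chr7:67952007-67952256, plus strand: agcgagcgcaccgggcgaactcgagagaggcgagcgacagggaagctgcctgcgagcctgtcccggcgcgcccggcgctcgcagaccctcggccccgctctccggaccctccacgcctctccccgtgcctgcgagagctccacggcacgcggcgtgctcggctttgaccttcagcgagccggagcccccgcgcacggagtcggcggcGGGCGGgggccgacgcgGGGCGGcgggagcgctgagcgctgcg
The Igf2r window held 3 GC boxes, of which 2 adjoin, and 2 E-boxes, and its GC content was 69.2%, with 27 CpG dinucleotides. The Igf1r window held 2 GC boxes and no E-box, at 77.6% GC with 42 CpG dinucleotides. Of all 32851 windows of the same length, 32.7% held the GC box, 6.02% held the E-box, the median GC content was 52.4% and the median number of CpG dinucleotides was 6. The p53 half-site motif, present in 7.13% of all windows, was in neither of these windows, which describes only the letters of these 250 bases. All 10 members had a RefSeq promoter.

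On build mm9, Igf2r (ENSMUSG00000023830) spans chr17:12875272-12962530 on the minus strand and overlaps Airn, a noncoding RNA gene on the opposite strand. Igf1r (ENSMUSG00000005533) spans chr7:75097713-75371484 on the plus strand and overlaps no other annotated gene. Igf1 (ENSMUSG00000020053) lies at chr10:87321010-87399792 and overlaps Gm16176 on the opposite strand. Igf2 (ENSMUSG00000048583) lies at chr7:149836673-149852721, where it overlaps Mir483 on its own strand and Igf2as on the other. Igfbp2 (ENSMUSG00000039323) at chr1:72871077-72899048 and Igfbp5 (ENSMUSG00000026185) at chr1:72904506-72921458 are neighbours on opposite strands. Igfbp3 (ENSMUSG00000020427) lies at chr11:7106089-7113926, Igfbp4 (ENSMUSG00000017493) at chr11:98902558-98913969 and Igfbp6 (ENSMUSG00000023046) at chr15:101974793-101979942. Igfbp7 (ENSMUSG00000036256) lies at chr5:77778265-77837070 and overlaps Polr2b and AC141469.5 on the opposite strand. All 10 are protein-coding genes, and counts cover whole genes. The study describes the libraries as stranded, so reads of genes on the opposite strand should be counted apart, while any reads of Mir483 cannot be separated from those of Igf2.

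Among the members, 4 of the 6 binding proteins had the highest levels in the aorta. Per kilobase of exon, Igfbp7 was at 1831 ± 254 CPM (SD, n = 20), above 99.9% of the genes tested and 18.3-fold above the next member. Igfbp4 at 99.9 ± 28.3, Igfbp5 at 97.4 ± 31.3 and Igfbp6 at 56.6 ± 21.3 CPM per kilobase (SD, n = 20) lay at percentiles 96.5, 96.4 and 93.1 of the genes tested. These binding proteins were followed by Igf2r at 13.4 ± 3.98 CPM per kilobase (SD, n = 20), at percentile 70.4. The remaining members were lower, with Igfbp2 at 4.76 ± 1.92, Igf2 at 4.08 ± 1.76, Igf1 at 3.61 ± 1.02, Igf1r at 3.34 ± 1.82 and Igfbp3 at 1.62 ± 0.927 CPM per kilobase (SD, n = 20). These means cover all doses. In the 2 sham-irradiated mice alone, Igf2r was at 10.6 (percentile 63.7), Igfbp6 at 86.7, Igf1 at 4.68 and Igf2 at 2.60 CPM per kilobase.

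Part of this order held in single mice. Igfbp7 exceeded Igfbp4 in 20 of 20 mice, Igfbp5 exceeded Igfbp6 in 20, Igfbp6 exceeded Igf2r in 19, Igf2r exceeded Igfbp2 in 20 and Igf1r exceeded Igfbp3 in 18. The neighbours Igfbp4 and Igfbp5 were in that order in 11 of 20 mice, Igfbp2 and Igf2 in 13, Igf2 and Igf1 in 10, and Igf1 and Igf1r in 13, so these pairs did not differ beyond the spread between mice. Igfbp7 made up 75.7% to 93.3% of the summed level per kilobase of the 6 binding proteins, with a median of 88.3%. The ratio of Igf1 to Igf2 per kilobase was between 0.395 and 2.13, and it was above 1 in 10 of 20 mice.

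**Figure D1:**
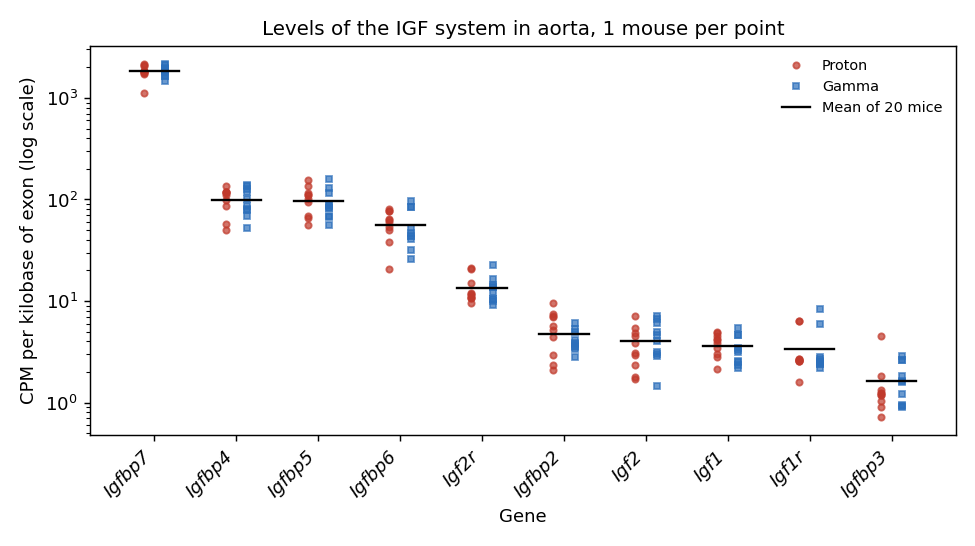
Level of each IGF gene in CPM per kilobase of exon, on a log axis, with 1 point per mouse (circles proton, squares gamma) and a bar at the mean of 20 mice. Igfbp7 stands alone at a mean of 1831, and the 5 lowest genes, with means of 1.62 to 4.76, overlap between mice.

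Igf2r counts were higher at higher dose with both radiation types. In the proton mice the count was 622 at 0 cGy, 534 at 5, 613 at 10, 678 at 25, 636 at 50, 663 at 75, 688 at 100, 885 at 125, 1193 at 150 and 1157 at 200 cGy. In the gamma mice it was 600 at 0 cGy, 507 at 5, 584 at 10, 579 at 25, 685 at 50, 796 at 75, 813 at 100, 827 at 125, 945 at 150 and 1268 at 200 cGy. The lowest count was at 5 cGy with both types, the proton mice had 534 to 688 counts up to 100 cGy, and the gamma mice had 796 or more from 75 cGy. The slope of Igf2r was 0.55 ± 0.07 log2 per 100 cGy (SE) for proton and 0.56 ± 0.07 for gamma radiation. These errors do not allow for the choice of the family by the rise of Igf2r. The rank correlation of the Igf2r count with dose was 0.915 over the 10 mice of each type.

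Over 0 to 125 cGy the slope of Igf2r was 0.35 for proton and 0.49 for gamma radiation, from 8 mice each, which are among the mice whose values chose the family. After correction of each library for the GC content and length of transcripts it was 0.43 over 0 to 200 cGy for proton and 0.41 for gamma radiation. The transcript of Igf2r used for this correction had 8887 bases at 51.2% GC, and the fitted GC and length effect that was removed from its level in the 4 mice at 150 and 200 cGy was 0.16 to 0.23 log2. Leaving out 1 mouse at a time, the slope was between 0.47 and 0.57 for proton and between 0.49 and 0.57 for gamma radiation.

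Igf1r, the signalling receptor, had a different course. Its proton counts were 74 at 0 cGy, 70 at 5, 69 at 10, 72 at 25, 71 at 50, 44 at 75, 69 at 100, 74 at 125, 169 at 150 and 167 at 200 cGy. Its gamma counts were 77 at 0 cGy, 71 at 5, 58 at 10, 66 at 25, 64 at 50, 68 at 75, 66 at 100, 69 at 125, 164 at 150 and 223 at 200 cGy. The 16 mice at 0 to 125 cGy had counts of 44 to 77 and the 4 mice at 150 and 200 cGy had 164 to 223, so the doses did not overlap. The mean count at 150 and 200 cGy was 2.48-fold that at the 8 lower doses for proton and 2.87-fold for gamma radiation. For Igf2r the same ratios were 1.77 and 1.64, with 945 to 1268 counts against 507 to 885. This split of the doses was made after the values were seen and is given with no test, and 8.01% of the genes tested had both mice at 150 and 200 cGy above all 8 lower doses in both radiation types.

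**Figure D2:**
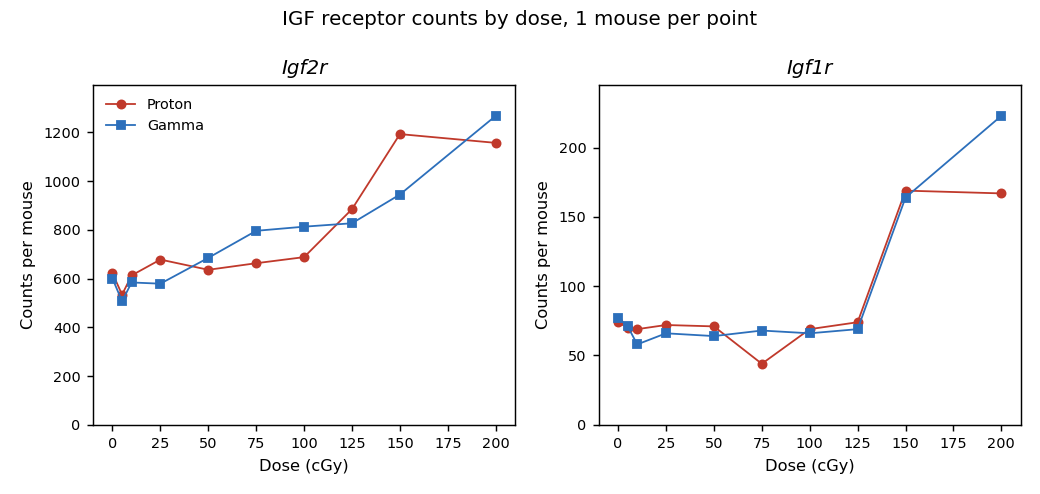
Counts of Igf2r (left) and Igf1r (right) against dose in cGy, 1 mouse per point, for proton (circles) and gamma (squares) mice, with both axes linear. In proton mice Igf2r is at 534 to 688 counts up to 100 cGy and at 885 to 1193 from 125 cGy. In gamma mice it is at 507 to 685 counts up to 50 cGy and at 796 to 1268 from 75 cGy. Igf1r stays at 44 to 77 up to 125 cGy and is at 164 to 223 at the 2 highest doses.

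Igf1r rose with gamma dose by 0.79 ± 0.18 log2 per 100 cGy (SE, 95% interval 0.40 to 1.17, edgeR adjusted p = 0.0263). With proton dose its slope was 0.65 ± 0.19 (SE, 95% interval 0.26 to 1.04), which did not pass the threshold of 0.1 (edgeR adjusted p = 0.115). Without the proton mouse at 75 cGy the proton slope of 0.64 passed it (edgeR adjusted p = 0.0644). Over 0 to 125 cGy the slopes of Igf1r were -0.06 for gamma (edgeR adjusted p = 0.989) and -0.10 for proton radiation (edgeR adjusted p = 0.983), so the call rested on the mice at 150 and 200 cGy. Without the gamma mouse at 150 cGy or without that at 200 cGy the call was lost, with a slope no lower than 0.52. The exact permutation test on ranks, two-sided over 10 mice of each type, gave a rho of 0.365 for gamma (adjusted p = 0.646) and 0.402 for proton radiation (adjusted p = 0.813).

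The 4 libraries at 150 and 200 cGy that carry this difference were those with the shifted GC and length profile. Genes above all lower doses in both radiation types had a median transcript GC content of 45.6% and a median length of 6185 bases, against 50.4% and 3062 bases over all genes tested. Igf1r was represented in the correction by the longest coding transcript of the annotation used, with 4181 bases at 54.2% GC. The fitted GC and length effect on its level in the 4 libraries was -0.11 to -0.05 log2, and removing it left slopes of 0.82 for gamma (edgeR adjusted p = 0.0551) and 0.70 for proton radiation (edgeR adjusted p = 0.192). The part of this profile, or of any other property of these libraries, in the difference was not tested, because dose and the 4 libraries cannot be told apart. Per kilobase, the ratio of Igf2r to Igf1r was 3.62 to 7.15 over 0 to 125 cGy and 3.29 to 3.35 at 150 and 200 cGy in proton mice, and in gamma mice it was 3.39 to 5.84 and 2.70 to 2.73. Igf2r exceeded Igf1r in 20 of 20 mice.

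Neither ligand passed the test. Igf1 counts were between 130 and 303 (median 244) in proton mice and between 129 and 329 (median 193) in gamma mice. At 150 and 200 cGy they were 178 and 167 in proton mice and 141 and 185 in gamma mice, all below the median of their type and within the range of the lower doses. The slopes of Igf1 were -0.22 ± 0.20 for proton (SE, edgeR adjusted p = 0.726) and -0.22 ± 0.19 for gamma radiation (edgeR adjusted p = 0.644), and over 0 to 125 cGy they were 0.0064 and -0.16. Igf2 counts were between 56 and 236 (median 118) in proton mice and between 48 and 229 (median 142) in gamma mice. The lowest Igf2 counts were those at 150 and 200 cGy in proton mice, 59 and 56, and that at 200 cGy in gamma mice, 48, while the gamma mouse at 150 cGy had 154. The Igf2 slopes were -0.64 ± 0.31 for proton (SE, edgeR adjusted p = 0.385) and -0.21 ± 0.32 for gamma radiation (edgeR adjusted p = 0.837), with a proton interval of -1.30 to 0.01. Over 0 to 125 cGy the Igf2 slopes were -0.18 and 0.43.

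Igfbp4, which inhibits IGF action and is cut by the protease encoded by Pappa, was lowest at the 2 highest doses. Its proton counts were 1716 at 0 cGy, 1682 at 5, 1669 at 10, 1439 at 25, 1602 at 50, 1722 at 75, 1237 at 100, 1996 at 125, 704 at 150 and 810 at 200 cGy. Its gamma counts were 1967 at 0 cGy, 1202 at 5, 1108 at 10, 1983 at 25, 1122 at 50, 1811 at 75, 1723 at 100, 1434 at 125, 762 at 150 and 956 at 200 cGy. In both types the counts at 150 and 200 cGy were below all 8 lower doses, at a ratio of means of 0.464 for proton and 0.556 for gamma radiation. Of all genes tested, 3.22% lay below in both types in this way. The linear slopes of Igfbp4 were -0.45 ± 0.19 for proton (SE, edgeR adjusted p = 0.309) and -0.35 ± 0.19 for gamma radiation (edgeR adjusted p = 0.345), and over 0 to 125 cGy they were 0.02 and 0.01. The proton slope of Igfbp4 passed the threshold without the proton mouse at 125 cGy, at -0.60 (edgeR adjusted p = 0.0708). Igfbp4 has a transcript of 58.7% GC, and the fitted GC and length effect on its level in the 4 mice was -0.22 to -0.20 log2.

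Igfbp5 and Igfbp6, the latter a binding protein that prefers IGF-II, were also low at these doses in proton mice. Igfbp5 counts were 2494 to 5762 at 0 to 125 cGy and 2004 and 2339 at 150 and 200 cGy in proton mice, and 2351 to 5819 against 2047 and 2947 in gamma mice. Igfbp6 counts were 336 to 559 against 138 and 250 in proton mice, and 210 to 653 against 175 and 272 in gamma mice. The doses did not overlap in proton mice and did in gamma mice. With Igf2 and Igfbp4, 4 of the 10 members were below all lower doses at 150 and 200 cGy in proton mice. Of all genes tested, 8.25% were. In gamma mice this held for 1 member, Igfbp4, and for 8.31% of all genes. The members are not separate cases, as Igfbp4, Igfbp5 and Igfbp6 varied together below 150 cGy (correlations of 0.707 to 0.747). Genes below in both types were rich in GC, with a transcript median of 57.2%, where the median over all genes was 50.4%. Transcripts of Igf2, Igfbp4 and Igfbp6 were at 55.8%, 58.7% and 60.7%, and that of Igfbp5 at 50.3%. The part of GC content in these low counts was not tested. The slopes of Igfbp5 were -0.34 ± 0.21 (SE, edgeR adjusted p = 0.543) and -0.33 ± 0.20 (edgeR adjusted p = 0.420), and those of Igfbp6 were -0.35 ± 0.28 (edgeR adjusted p = 0.670) and -0.41 ± 0.27 (edgeR adjusted p = 0.462) for proton and gamma radiation. Over 0 to 125 cGy the proton slopes were 0.098 for Igfbp5 and 0.23 for Igfbp6, and the gamma slopes were -0.35 and -0.19.

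The other binding proteins showed no slope past the threshold. Igfbp2 counts were 23 to 109 (median 61.5) in proton mice and 32 to 67 (median 42.5) in gamma mice, with slopes of -0.26 ± 0.27 (SE, edgeR adjusted p = 0.777) and -0.23 ± 0.26 (edgeR adjusted p = 0.735). Igfbp3, the main carrier of IGFs in blood plasma, had 14 to 88 counts (median 23) in proton mice and 17 to 55 (median 30.5) in gamma mice, with slopes of 0.06 ± 0.39 (SE, edgeR adjusted p = 0.984) and 0.22 ± 0.37 (edgeR adjusted p = 0.849). Igfbp7 had 8360 to 15945 counts (median 13327) in proton mice and 10980 to 15587 (median 13664) in gamma mice. The Igfbp7 slopes were 0.02 ± 0.11 (SE, 95% interval -0.21 to 0.25) for proton and -0.03 ± 0.11 (-0.26 to 0.21) for gamma radiation, the narrowest intervals among the 9 tested members. Over 0 to 125 cGy the proton and gamma slopes were 0.34 and -0.23 for Igfbp2, 0.67 and 0.52 for Igfbp3, and 0.070 and 0.084 for Igfbp7. The proton mouse at 75 cGy had both the highest Igfbp3 count, 88, and the lowest Igfbp7 count, 8360, as well as the lowest Igf1r count, 44.

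**Figure D3:**
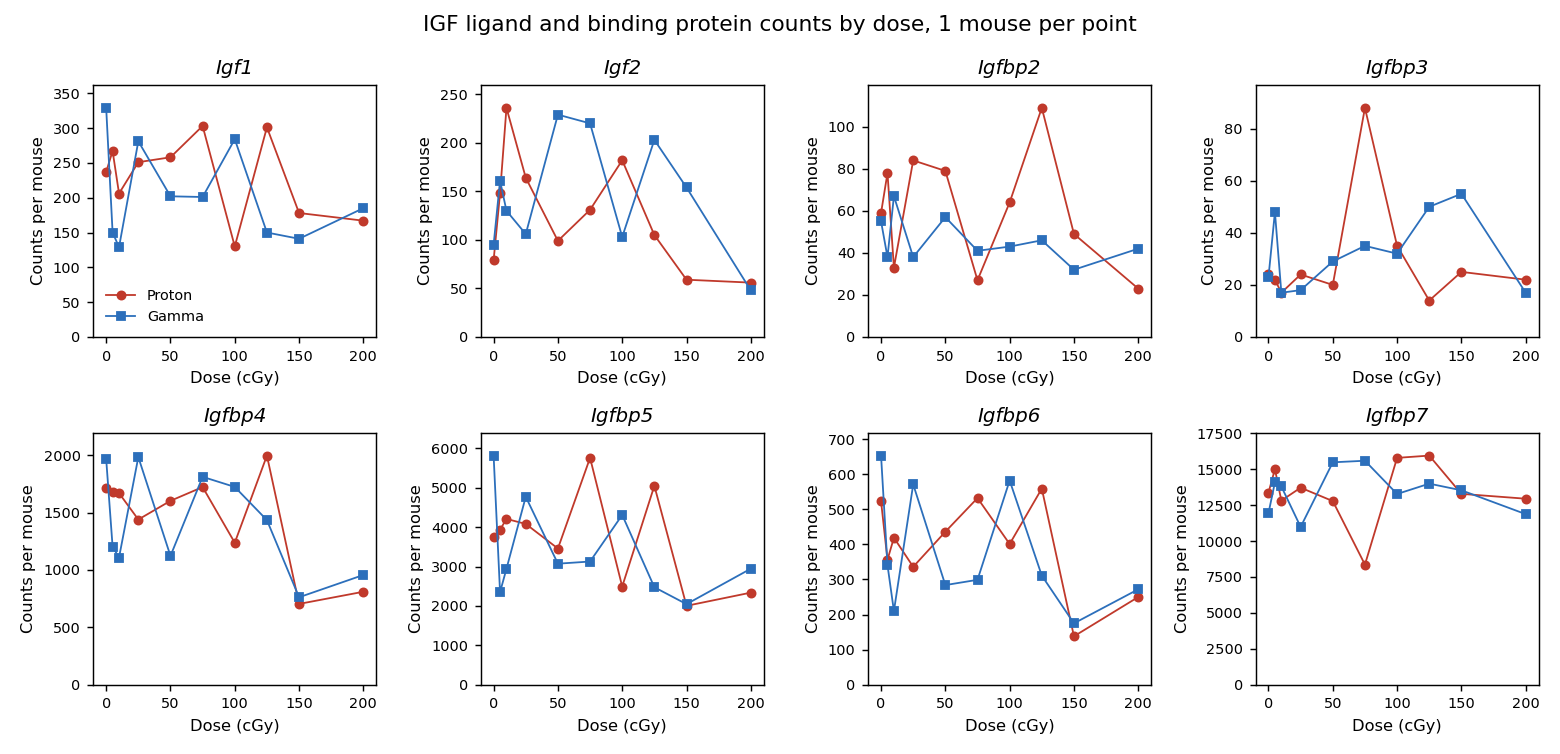
Counts of the ligands Igf1 and Igf2 and of the 6 binding proteins against dose in cGy, 1 mouse per point, for proton (circles) and gamma (squares) mice, each panel with its own linear axis from 0. Igfbp4 is at 704 to 956 counts at 150 and 200 cGy and at 1108 or more below, and the proton mouse at 75 cGy stands out in Igfbp3 at 88 and Igfbp7 at 8360.

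Counted over the 9 tested members, the edgeR slope with proton dose passed the threshold in 0 genes, against 1.76% of all genes tested. With edgeR 2 of the 9, Igf1r and Igfbp4, had an unadjusted p under 0.05, as did 1745 of all 13124 genes. With DESeq2 also 0 passed, and 3 of the 9, Igf1r, Igfbp4 and Igf2, had an unadjusted p under 0.05, as did 1663 genes among all those tested. The slope with gamma dose passed in 1 gene, Igf1r, against 7.65% of all genes. The exact permutation trend test passed in 0 of 9 members with both types, with 0 at an unadjusted p under 0.05, against 0.0838% of all genes for proton and 1.8% for gamma radiation. The median slope of the 9 genes was -0.26 for proton and -0.22 for gamma radiation, and the median over all genes tested was 0.002 and 0.01.

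**Figure D4:**
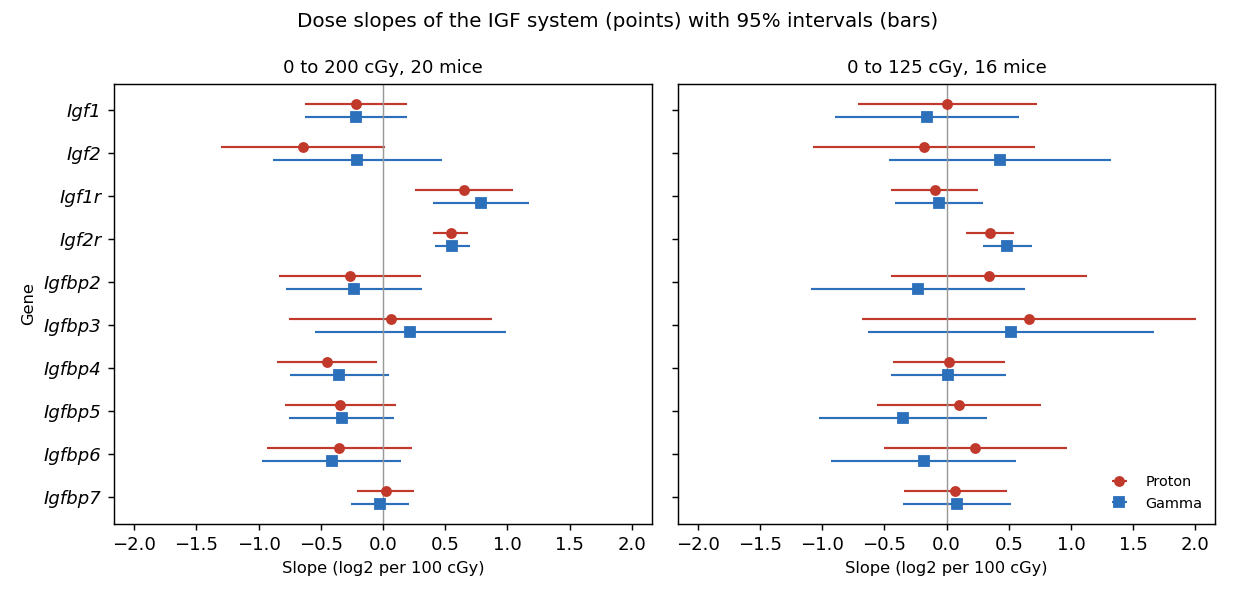
Slope of each IGF gene in log2 per 100 cGy with its 95% interval, for proton (circles) and gamma (squares) mice, over 0 to 200 cGy in 20 mice (left) and over 0 to 125 cGy in 16 mice (right). The slopes of Igf1r are 0.65 and 0.79 in the left panel and -0.10 and -0.06 in the right panel, while Igf2r keeps slopes of 0.35 and 0.49 in the right panel. The intervals of Igf2r do not allow for the choice of the family by its rise and are no test of it.

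Differences in slope between the radiation types were tested directly for the 9 members other than Igf2r. The slope of Igf2r differed by -0.01 (95% interval -0.21 to 0.19, proton minus gamma), given with no test. Its rise chose the family, and the interval does not allow for that. For Igf1r the difference was -0.14 (95% interval -0.70 to 0.42) and for Igf2 it was -0.44 (-1.38 to 0.50), the widest apart of the members. The edgeR test of the slope difference passed in 0 of the 9 other members (0 at an unadjusted p under 0.05) and in 0.0% of all genes. DESeq2 passed in 0 as well.

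Levels at matched dose, proton minus gamma over 10 pairs of mice, differed by -0.24 to 0.29 log2 among the members. Igf2r differed by -0.003 (95% interval -0.14 to 0.13) and Igf1r by -0.05 (-0.25 to 0.14). The member with the largest difference was Igfbp2, at 0.29 (95% interval -0.22 to 0.81) and higher in proton mice in 7 of 10 pairs, and Igfbp3 followed with -0.24 (-0.83 to 0.36). With edgeR 0 of 10 members passed (smallest adjusted p = 0.793, and 0 at an unadjusted p under 0.05), as did 0.0% of all genes, and DESeq2 passed 0 of the 9 members to which it gave an adjusted p.

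Several members varied together across the mice below 150 cGy. Over the 16 mice at 0 to 125 cGy, Pearson correlations of log2 CPM were 0.895 between Igf1 and Igfbp5, 0.790 between Igf1 and Igfbp4, 0.731 between Igf1 and Igfbp6, and 0.707 to 0.747 among Igfbp4, Igfbp5 and Igfbp6. The same 4 genes had correlations of 0.729 to 0.894 with the mean of 6 fibroblast markers, Pdgfra, Dcn, Lum, Col1a1, Dpt and Col14a1, which include no member. Their correlations with other lists were of like size, 0.729 to 0.941 with the macrophage markers, 0.691 to 0.818 with the lymphocyte markers and 0.649 to 0.806 with the endothelium markers, and the highest was that of Igfbp6 with the macrophage markers. Igfbp7 had 0.825 with the 6 smooth muscle markers and Igf1 had -0.57 with them. With all other lists Igfbp7 had negative correlations, among them -0.745 with the white fat and -0.729 with the endothelium markers. The 16 mice include the proton mouse at 75 cGy, which had the lowest Igfbp7 count, 8360, and the lowest smooth muscle sum, 26703 CPM. The weight of this mouse in the correlations was not tested. These mice share tissue dissection and resampled depth as well as treatment, and the correlations are descriptions with no test.

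The summed fibroblast markers were 1828 to 3389 CPM at 150 and 200 cGy and 2945 to 5600 CPM in the other mice apart from the proton mouse at 75 cGy, where they were 3746. These fibroblast ranges overlapped, with lower values at the 2 highest doses. The macrophage markers summed to 78.5 to 283 CPM at 150 and 200 cGy, against 69.8 to 428 CPM in the same other mice. The endothelium markers summed to 552 to 1310 CPM, against 374 to 1240 CPM. The part of any marker list in the values of Igfbp4, Igfbp5 and Igfbp6 was not tested. The smooth muscle markers summed to 47655 to 51952 CPM at 150 and 200 cGy, within their range at lower doses. All 5 lymphocyte markers had a mean count under 5. Igf2 had negative correlations with the same lists over the 16 mice, -0.807 with the macrophage, -0.731 with the lymphocyte, -0.728 with the fibroblast and -0.635 with the endothelium markers, and -0.660 with Igfbp6.

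The receptors showed no correlation below 150 cGy, where Igf1r varied little, at 44 to 77 counts, so that shared variation could be missed. Igf1r and Igf2r had a correlation of 0.817 over all 20 mice and of -0.034 over the 16 mice at 0 to 125 cGy. Igf1r had a correlation of -0.847 with the cardiomyocyte markers over the 16 mice, in which the proton mouse at 75 cGy had the lowest Igf1r count and the highest marker level. Igf2r had correlations between -0.15 and 0.15 with the smooth muscle, endothelium, fibroblast, macrophage, fat and cardiomyocyte markers, and of -0.553 with the skeletal muscle markers, of which 3 of 6 had a mean count under 5.

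**Figure D5:**
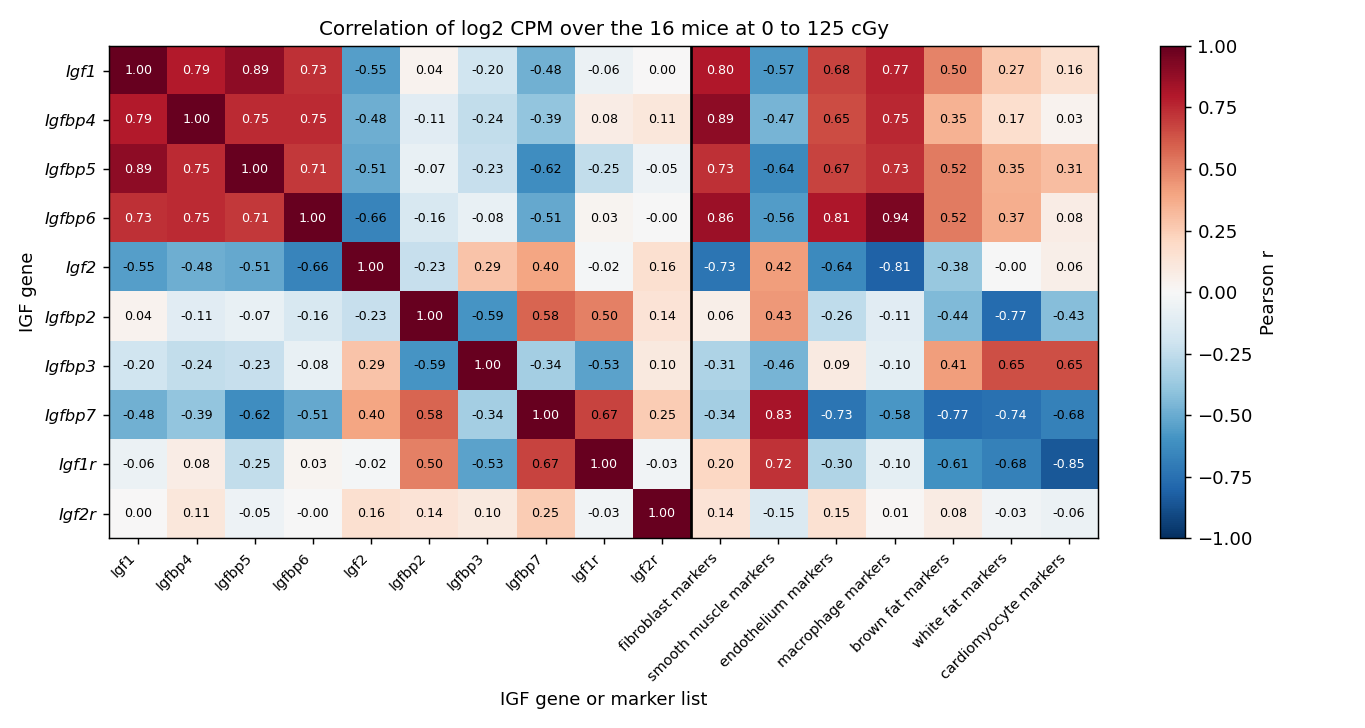
Pearson correlation of log2 CPM over the 16 mice at 0 to 125 cGy, among the 10 IGF genes (left of the line) and with 7 lists of cell type markers (right of the line), coloured from -1 to 1. Igf1, Igfbp4, Igfbp5 and Igfbp6 form a block from 0.707 to 0.895, and Igf2r lies between -0.05 and 0.25 with the other members.

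The genes whose log2 CPM followed a member most closely over the 20 mice, among 9817 genes with a mean of 50 or more counts, were these. For Igf2r they included Trp53inp1 at 0.927, Mdm2, the ubiquitin ligase of p53, at 0.920, Rnf169 at 0.905 and Avl9 at 0.903. For Igf1r they were D18Ertd653e at 0.972, Spna2 at 0.969 and Prrc2c at 0.961. Igf1 was closest to Fndc1 at 0.913, Cd34 at 0.900 and Igfbp5 at 0.876, and Igf2 to Sncg at 0.888, Neat1 at 0.858 and Timp4 at 0.822. Igfbp4 was closest to Entpd2 at 0.895, Podn at 0.891 and Gm2a at 0.889, Igfbp5 to Thy1 at 0.894, Pltp at 0.884 and Clec3b at 0.882, and Igfbp6 to Cygb at 0.938, Gdf10 at 0.925 and Anpep at 0.923. Igfbp7 was closest to Rras at 0.940, Uchl1 at 0.899 and Wfdc1 at 0.895. Igfbp2 was closest to Col15a1 at 0.862, Snd1 at 0.823 and Htra1 at 0.822, of which Htra1 encodes a secreted protease that cuts IGF binding proteins. Igfbp3 was closest to Ubac1 at 0.846, Ndufa2 at 0.835 and Zfp185 at 0.798. All are correlations over mice that share dose, depth and dissection, with no test. Igf2r chose the family by its rise with dose in these mice. High correlations of Igf2r with other genes that rise with dose were therefore set in advance. The 20 mice include the 4 at 150 and 200 cGy, where Igf1r was at 164 to 223 counts. They also include the proton mouse at 75 cGy, with 88 counts of Igfbp3. The weight of these mice in the correlations was not tested.

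Of 42 further genes of the pathway, 35 passed the count filter. With proton dose 2 of the 35 passed the edgeR test upward and 0 downward, and with gamma dose 2 passed upward and 1 downward, against 1.76% and 7.65% of all genes in either direction. Pdpk1, the kinase that activates AKT, rose with both types, by 0.33 ± 0.08 log2 per 100 cGy for proton (SE, edgeR adjusted p = 0.0591) and 0.29 ± 0.08 for gamma radiation (edgeR adjusted p = 0.0440). Pdpk1 had 325 to 437 counts at 0 to 125 cGy and 497 to 582 at 150 and 200 cGy, with no overlap. Of all genes tested, 8.01% had both mice at 150 and 200 cGy above all 8 lower doses in both types. The slopes of Pdpk1 over 0 to 125 cGy were 0.09 and -0.01. After the GC and length correction, and over 0 to 125 cGy, 0 of the 35 passed with either type. Without the gamma mouse at 150 cGy or that at 200 cGy 0 passed with gamma dose, and without the proton mouse at 75 cGy 6 did. With proton dose 0 passed without the proton mouse at 5, 10, 150 or 200 cGy.

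Airn, the noncoding RNA that overlaps Igf2r on the other strand and silences it on the paternal chromosome in many tissues, rose with proton dose by 0.47 ± 0.13 (SE, edgeR adjusted p = 0.0898). With gamma dose the slope of Airn was 0.35 ± 0.13 (SE, edgeR adjusted p = 0.135), which did not pass. Airn counts were 41 to 65 in proton mice at 0 to 125 cGy and 69 and 96 at 150 and 200 cGy, and 40 to 77 against 80 and 94 in gamma mice. Such a separation in both types was found in 8.01% of all genes tested. Foxo3, a transcription factor restrained by AKT, rose with gamma dose by 0.42 ± 0.13 (SE, edgeR adjusted p = 0.0774). With proton dose the slope of Foxo3 was 0.24 ± 0.13 (SE, edgeR adjusted p = 0.451), which did not pass. Akt1 fell with gamma dose, by 0.20 on the log2 scale per 100 cGy (SE 0.05, edgeR adjusted p = 0.0441), with 1138 to 1358 counts at 0 to 125 cGy and 933 and 1064 at 150 and 200 cGy. In gamma mice 8.31% of all genes tested were below all lower doses in this way. With proton dose the slope of Akt1 was -0.08 ± 0.05 (SE, edgeR adjusted p = 0.607), which did not pass. The differences between radiation types passed the edgeR test in 0 of the 35 genes, for slopes and for matched doses.

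The other lists held no gene that passed. They were the 5 binding protein proteases and their inhibitors, the 7 measured insulin receptor and adaptor genes, the 5 genes of the growth hormone axis, the 1 measured Igf2 mRNA binding protein and the 7 genes of the mannose 6-phosphate pathway. The last group marks lysosomal enzymes and sorts them with the product of Igf2r. Its slopes were -0.10 to 0.07 for proton and -0.17 to 0.13 for gamma radiation. Igf2r itself had 0.55 and 0.56, but its rise chose the family, so this contrast was set in advance and is no test. M6pr, the gene of the cation-dependent receptor, had 705 to 888 counts over all 20 mice. Insr, the insulin receptor gene, had 655 to 881 counts at 0 to 125 cGy and 889 to 1047 at 150 and 200 cGy, with slopes of 0.14 for proton (edgeR adjusted p = 0.474) and 0.11 for gamma radiation (edgeR adjusted p = 0.560). Like Insr, 8.01% of all genes tested had both mice at 150 and 200 cGy above all lower doses in both types. Binding protein genes outside the members had low counts and did not pass the filter, with 0 to 1 counts for Igfbp1, 0 to 3 for Igfbpl1 and 1 to 13 (median 4) for Igfals, the gene of a partner of IGFBP-3 in plasma.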

How the data were processed

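Aortic RNA of 20 mice was measured by polyA-selected, stranded RNA sequencing. The authors called bases with CASAVA 1.8.1 and aligned reads with STAR 2.5.2a to build mm9, per their processing notes, resampled libraries to one depth with PORT, and deposited counts of sense reads per gene. The annotation they counted on is not given in the sources used here. The 13124 genes with a mean of 5 or more counts were tested. Total counts were between 6051657 and 6058006, and 3 counts, or 4.95e-05% of a library, was taken as the detection limit, for counting error only.

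Slopes of each radiation type, their difference, and proton minus gamma with dose as a factor were fitted in edgeR 4.0.16 (TMM, robust quasi-likelihood) over all 20 mice. The trend test was an exact two-sided permutation test of Spearman's rho. Adjusted p-values are by Benjamini-Hochberg over all genes tested, threshold 0.1. The fits were tested on simulated data. Levels are CPM divided by the exon length of GENCODE M1, whose build (mm9) and identifiers match the table, and mm9 coordinates are from it. The table's own intervals extend 202 bases beyond on both sides. Promoters are RefSeq, GRCm38.p6.

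The members, gene lists and marker lists were chosen with earlier results of these data known. Named genes are the 10 members, pathway genes that passed a test, and the 3 genes (5 for Igf2r) closest to each member by Pearson r among genes with a mean of 50 or more counts, of which 1 is not reported here. M6pr, Insr, Pappa, Igfbp1, Igfbpl1 and Igfals were added after their values were seen. Alternatives were DESeq2 1.42.0, no TMM, filters at 1 count in any mouse and a mean of 50, a correction for GC content and length fitted per library, 0 to 125 cGy only, no proton mouse at 75 cGy, 1 surrogate variable (sva 3.50.0), a brown fat marker score, dose as a rank or log2(dose + 1), no block for dose, and leaving out each mouse or pair. Both the correction and the restriction to 0 to 125 cGy together were added after the data were seen. R 4.3.3 and Python 3.11.15 were used. Protein sequences were not used here.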

Additional observations from a re-analysis of the deposited data

Results flagged for a closer look

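Among 20 groups of 10 mice (10 genes in each radiation type), 2 held a count far from the rest by Dixon's criterion, which flags about 1 in 20 groups by chance. Both belonged to the proton mouse at 75 cGy, with Igfbp3 at 88 counts, where the other proton mice had 14 to 35, and Igfbp7 at 8360 counts, where the others had 12779 to 15945. The brown fat markers of this mouse summed to 2122 CPM, against 145 to 833 in the other mice below 150 cGy, and its smooth muscle markers to 26703 CPM, against 39478 to 56767. The part of these markers in the 2 values was not tested.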

How the results depend on the processing

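Of the 9 tested members, 0 passed with proton dose and 1 with gamma dose. The proton number was 1 without the proton mouse at 75 cGy, with 1 surrogate variable and with the brown fat score (Igf1r each time), and 0 to 2 when single mice were left out, with 2 (Igf1r and Igfbp4) without the proton mouse at 125 cGy and 1 without the gamma mouse at 125 cGy. The gamma number was 0 over 0 to 125 cGy, with dose as a rank, with log2(dose + 1) and with the correction over 0 to 125 cGy, and 0 to 1 when single mice were left out, with 0 without the gamma mouse at 150 or at 200 cGy. Numbers for the slope difference, matched doses and the trend test stayed at 0 under every alternative run.

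Of the 35 further pathway genes, 2 passed with proton and 3 with gamma dose. These became 3 and 9 with the surrogate variable, 2 and 8 with the brown fat score, 2 and 5 with DESeq2, 2 and 6 of 30 with a mean of 50 or more counts, 1 and 2 of 42 with at least 1 count, 0 and 1 with dose as a rank, 0 and 0 with log2 dose, the correction or 0 to 125 cGy, and 0 to 3 and 0 to 6 when single mice were left out.

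Signs turned mostly over 0 to 125 cGy, a range with fewer mice. There, and in parentheses with the GC and length correction added, the proton slopes were 0.0064 (0.040) for Igf1, -0.10 (-0.11) for Igf1r, 0.34 (0.28) for Igfbp2, 0.098 (0.094) for Igfbp5 and 0.23 (0.15) for Igfbp6, and that of Igfbp4 was 0.019 without the correction. The gamma slopes were 0.43 (0.43) for Igf2, -0.061 (-0.078) for Igf1r, 0.084 (0.042) for Igfbp7 and -0.00968 (-0.053) for Pdpk1, and that of Igfbp4 was 0.014 without it. The rho of Igf1r was -0.157 for proton and -0.25 for gamma radiation. Near 0, Igfbp7 turned to -0.029 (brown fat score) and -0.00300 (log2 dose) for proton, and to 0.063 (correction), 0.016 (surrogate variable), 0.025 (brown fat score) and 0.011 (log2 dose) for gamma radiation, and Igf2 to 0.041 (log2 dose) for gamma radiation. The slope difference of Igf2r was 0.019 with the correction, and its matched-dose difference was 0.012 without TMM, 0.022 without the pair at 75 cGy, 0.00789 with the surrogate variable and 0.0022 with no replicate block, that is, with the mice at the same dose not paired. With single mice left out, slopes ran from -0.52 to 0.11 (Igfbp2), -0.073 to 0.32 (Igfbp3) and -0.011 to 0.059 (Igfbp7) for proton, and from -0.38 to 0.27 (Igf2) and -0.079 to 0.047 (Igfbp7) for gamma radiation. The slope difference ran from -0.28 to 0.13 for Igf1r and from -0.083 to 0.054 for Igf2r, and the matched-dose difference of Igf2r from -0.044 to 0.022. None of these turned values passed the threshold. Where the range of doses does not account for a change, the cause was not tested.

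Over all genes, 210 passed upward and 21 downward with proton dose, and 714 and 290 with gamma dose. Over 0 to 125 cGy the numbers were 13 and 1, and 29 and 5, and with the GC and length correction 85 and 6, and 151 and 81. With the surrogate variable they were 525 and 118, and 1218 and 562, with the brown fat score 366 and 146, and 1109 and 487, without the proton mouse at 75 cGy 394 and 97, and 941 and 642, and with DESeq2 256 and 54, and 708 and 487. With log2 dose they were 22 and 0, and 38 and 7, with dose as a rank 40 and 1, and 335 and 145, and with genes of at least 1 count 131 and 8, and 463 and 155. At matched dose edgeR passed 0 genes (1032 at an unadjusted p under 0.05) and DESeq2 passed 17 upward and 53 downward. Per kilobase, 5 of the 10 members lay above the median gene, also with the longest transcript as length and in the 2 sham-irradiated mice alone.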
